A study of Mus musculus with 8 samples.

Results

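The genes described here are those of sterol and fatty acid synthesis and of its control by the sterol regulatory element binding proteins (SREBPs). They were taken by name from a written list of 33 genes. No measured value enters that rule, but the list was drawn up with earlier results of these data known. Of these, 31 were in the deposited table of 17091 features and all 31 were among the 12107 features tested, while Hmgcs1 and Msmo1 were not analysed here. The cells were immortalised fibroblasts from mouse skin. Their RNA was sequenced in 4 groups of 2 libraries, and the values are the authors' normalised read counts, called normalised reads below. KO hypoxia and KO normoxia libraries came from cells of mir210lox/lox mice kept for 24 h at 1% or 21% oxygen, and WT hypoxia and WT normoxia libraries came from cells of WT mice kept in the same way. Both strains are C57BL/6. The titles call the mir210lox/lox cells KO, the labels name no Cre driver, and whether a genotype is 1 clone or several lines is not given in the sources used here. The question of the design is how fibroblasts respond to low oxygen with and without miR-210, a microRNA induced by the low-oxygen transcription factor HIF.

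Cells build cholesterol from acetyl-CoA through the mevalonate pathway, squalene and a long series of sterol intermediates, and several of the later steps use molecular oxygen. The same acetyl-CoA feeds the synthesis of saturated fatty acids, which desaturases then modify, again with molecular oxygen. SREBP-1 and SREBP-2 switch on most of these genes when membrane sterol is low: SCAP escorts them out of the endoplasmic reticulum, and the INSIG proteins hold SCAP back when sterol is plentiful. In fibroblasts, which divide in culture, this pathway supplies membrane lipid.

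No member passed the test in any comparison, and the clearest pattern lay within a group: KO normoxia replicate 1 had the highest value of all 8 libraries for 27 of the 31 genes (87.1%, against 21.9% of all tested features). Besides that library, the genes tended to be lower in hypoxia, weakly so in KO. Without it the median log2 fold change for hypoxia was -0.08 in KO, with 20 members lower and 11 higher. In WT the median was -0.22, with 23 lower and 8 higher. Mvd, Hsd17b7, Sc5d, Acat2 and Acly had lower values in all 4 hypoxia libraries than in all 4 normoxia libraries (16.1% of members, against 1.65% of features). With all 8 libraries, Insig2 was the member with the largest positive hypoxia difference in both genotypes (log2 fold change 0.55 in WT and 0.18 in KO). Without KO normoxia replicate 1 its KO value was 0.014, and it was no longer the largest there (Srebf1 had 0.30). The promoters of Mvk, Mvd and Lss, which were far above the other libraries in KO normoxia replicate 1, and of Cyp51 and Hsd17b7, which had the largest test statistics for hypoxia in KO and in WT, are shown as RefSeq gives them for GRCm38.p6, from 250 bases before to 50 bases after the annotated start, 5′ to 3′ on the strand of the gene. Capitals mark the letters CCAAT or their reverse complement ATTGG, the site of the factor NF-Y, which often acts beside SREBPs.

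Mvk (chr5:114444019-114444318, plus strand): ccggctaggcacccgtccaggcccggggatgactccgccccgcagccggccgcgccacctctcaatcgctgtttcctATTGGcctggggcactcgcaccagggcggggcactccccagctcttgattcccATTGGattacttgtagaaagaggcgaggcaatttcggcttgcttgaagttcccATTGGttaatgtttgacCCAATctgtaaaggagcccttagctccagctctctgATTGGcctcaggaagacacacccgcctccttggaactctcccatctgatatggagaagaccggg
Mvd (chr8:122443373-122443672, minus strand): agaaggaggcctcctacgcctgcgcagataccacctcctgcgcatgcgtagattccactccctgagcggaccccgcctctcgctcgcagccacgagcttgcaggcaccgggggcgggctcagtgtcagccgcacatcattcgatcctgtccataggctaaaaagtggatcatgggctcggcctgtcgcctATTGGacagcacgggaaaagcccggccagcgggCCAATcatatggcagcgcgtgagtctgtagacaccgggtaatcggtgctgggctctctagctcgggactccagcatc
Lss (chr10:76531355-76531654, plus strand): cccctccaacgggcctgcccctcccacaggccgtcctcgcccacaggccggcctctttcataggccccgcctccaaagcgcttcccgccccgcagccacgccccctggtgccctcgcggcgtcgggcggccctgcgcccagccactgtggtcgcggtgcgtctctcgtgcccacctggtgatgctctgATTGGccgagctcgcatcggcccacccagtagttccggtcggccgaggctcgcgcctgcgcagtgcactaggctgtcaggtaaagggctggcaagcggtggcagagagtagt
Cyp51 (chr5:4104648-4104947, minus strand): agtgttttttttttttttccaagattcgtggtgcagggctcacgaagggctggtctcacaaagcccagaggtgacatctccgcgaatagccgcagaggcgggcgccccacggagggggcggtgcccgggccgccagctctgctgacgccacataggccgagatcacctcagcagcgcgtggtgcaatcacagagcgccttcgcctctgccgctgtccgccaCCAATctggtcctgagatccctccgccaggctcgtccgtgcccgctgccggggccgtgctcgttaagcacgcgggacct
Hsd17b7 (chr1:169969156-169969455, minus strand): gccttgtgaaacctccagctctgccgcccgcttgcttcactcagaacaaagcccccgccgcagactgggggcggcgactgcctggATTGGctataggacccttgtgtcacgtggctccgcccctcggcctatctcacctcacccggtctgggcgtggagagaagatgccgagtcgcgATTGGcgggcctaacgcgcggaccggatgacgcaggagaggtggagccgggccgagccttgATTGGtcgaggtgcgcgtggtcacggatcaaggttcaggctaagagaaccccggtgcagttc

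Windows were found for 24 of the 31 members, 32 windows in all since some genes have several starts. CCAAT, read on both strands, was in a window of 18 of the 24 genes (75%), against 43.5% of 8792 tested genes with a window. The Mvk window held 5 such runs, between 173 bases and 14 bases before the start, the Hsd17b7 window 3, the Mvd window 2, and the Lss and Cyp51 windows 1 each. The E-box CACGTG was in 5 genes (20.8%, against 12.2%), namely Hsd17b7, Sc5d, Dhcr7, Insig1 and Scap, and the GC box GGGCGG in 19 (79.2%, against 71%). The SREBP site core TCACNCCAC (N being any base) was in 0 of the 24 members with a window, against 1.4% of tested genes with one. Sites that differ from these letters would be missed, so this does not show that SREBP sites are absent. Letters of HIF sites were found at about the level of all genes, ACGTG (which also lies within CACGTG) in 29.2% against 29.8% and GCGTG in 62.5% against 57.3%. These are matches of letters, and no binding was measured.

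Depth and library quality set the frame. Estimated reads assigned to genes ran from 6.27 M to 11.8 M per library, from the spacing of low values. For Mir210 itself every library holds a 1, the floor of the table, so the labels of KO and WT could not be checked on it. Hypoxia was visible in both genotypes: of 8 well-known HIF targets, 6 rose in KO and 6 in WT (limma, adjusted p under 0.05), and Egln3, a HIF prolyl hydroxylase, was higher by 3.86 ± 0.30 on the log2 scale in KO and by 4.33 ± 0.30 in WT (SE, adjusted p = 7.1e-04 and 4.7e-04). All 10 fibroblast markers were in the table and summed to 61225 to 92234, mostly Vim and S100a4. Lum and Dcn were low, Lum at 1 to 4 in KO and 4 to 36 in WT, and Dcn at 12 to 25 in KO and 40 to 93 in WT. Markers of leukocytes (7 of 9 in the table) summed to 69 to 105 and of endothelium (6 of 7) to 20 to 55. Those of keratinocytes (7 of 7) summed to 62 to 76 in KO and 35 to 57 in WT. Ptprc was at 1 to 6, Pecam1 at 1 to 2 and Krt5 and Krt1 at 1 in every library. The highest on average in each list were Cd14 at 43 to 79, Kdr at 6 to 25 and Cdh1 at 8 to 38. Adipocytes are a lipid-making cell of skin, and 3 of their 9 markers were in the table. These summed to 12 and 15 in KO hypoxia, 21 and 21 in KO normoxia, 8 and 99 in WT hypoxia and 19 and 57 in WT normoxia, with Cidec at 1 throughout, and their part in the results was not tested. Muscle markers (4 of 6) summed to 3001 to 6329, mostly Cnn1 and Actg2, with Des at 1 to 7. Whether the 2 libraries of a group are separate cultures is not in the labels. Each p-value thus reflects only how far these libraries vary, which may be technical variation. In bulk RNA fewer cells of a kind and less RNA per cell cannot be told apart. With 2 libraries on each side the smallest p of an exact permutation test is 0.333. Every p here comes from limma instead, which pools the spread over the 4 groups and over genes. Values of a group are given in the order replicate 1, replicate 2.

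Levels per length of transcript differed widely between members. Per kb of transcript, Acly, which makes cytosolic acetyl-CoA from citrate, averaged 558 ± 84.7 normalised reads over the 8 libraries (SD). It was followed by the stearoyl-CoA desaturase Scd2 at 482 ± 141, the lanosterol demethylase Cyp51 at 431 ± 138 and squalene epoxidase Sqle at 380 ± 66.4. At the low end were Tm7sf2, a sterol reductase, at 17.8 (10.9 to 29.9 over the libraries), Lpin1, a phosphatidate phosphatase, at 13.8 ± 5.31, and Idi1, the isomerase of isoprenoid units, at 7.89 ± 2.02. Srebf2 lay at 191 ± 53.7 and Srebf1 at 126 ± 28.7 per kb. Each pair of neighbours in this order had overlapping ranges over the 8 libraries, so the order is coarse. The plot of levels per kb shows that most genes have a lone high point in KO normoxia.

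**Figure D1:**
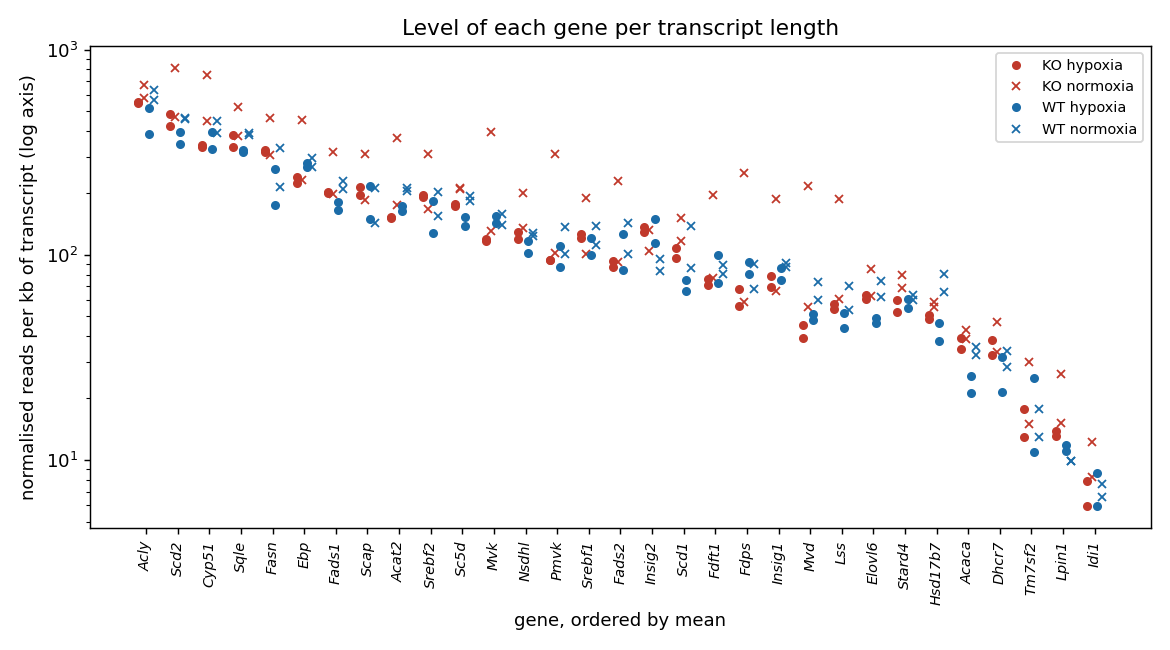
Normalised reads per kb of transcript (log axis) for the 31 genes, ordered by their mean, with a point for each of the 8 libraries (circles hypoxia, crosses normoxia, red KO, blue WT). The highest point of 27 genes is KO normoxia replicate 1, for example Mvk at 395 where its mean is 169.

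The excess of KO normoxia replicate 1 differed between the roles. Against the other library of its own group, KO normoxia replicate 2, the members had a median log2 difference of 0.74, where all tested features had 0.01. At least a factor of 1.5 separated the libraries for 19 members (61.3%, against 19.5% of features) and at least a factor of 2 for 9 members (29%, against 6.24%), which were Mvk, Pmvk, Mvd, Fdps, Fdft1, Lss, Acat2, Insig1 and Fads2. The median was 1.59 for the 6 genes of the mevalonate steps, 0.89 for the 5 of SREBP control, 0.74 for the 4 desaturases, 0.66 for the 10 from squalene to sterol and 0.03 for the 4 of fatty acid synthesis. With a linear trend on transcript length taken out of each library, these medians were 1.27 for the mevalonate steps, 1.11 for SREBP control, 0.94 for the desaturases, 0.58 from squalene to sterol and 0.42 for fatty acid synthesis. The mevalonate steps were the highest in both sets of values, and the fatty acid genes the lowest, but the gap between them was smaller with the trend removed. In the other groups the median difference between libraries was small, -0.02 in KO hypoxia, -0.07 in WT hypoxia and 0.07 in WT normoxia.

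Genes of the mevalonate steps carried the largest excess. Mvk, mevalonate kinase, had 197 and 194 normalised reads in KO hypoxia, 655 and 216 in KO normoxia, 238 and 255 in WT hypoxia and 261 and 231 in WT normoxia. Mvd, the decarboxylase that yields the isoprenoid unit, had 69 and 80 in KO hypoxia, 378 and 98 in KO normoxia, 84 and 90 in WT hypoxia and 129 and 106 in WT normoxia. Acat2, the cytosolic thiolase that starts the pathway, had 342 and 340 in KO hypoxia, 829 and 394 in KO normoxia, 366 and 388 in WT hypoxia and 478 and 460 in WT normoxia. For all 3 genes the lone library at 655, 378 and 829 lay far above the other 7, which reached 261, 129 and 478 at most. Fdps, farnesyl diphosphate synthase, was 4.21 times as high in KO normoxia replicate 1 as in replicate 2, and Pmvk, phosphomevalonate kinase, 3.01 times. Idi1 differed less, with 37 and 25 in KO normoxia. Fdps shares 1124 exon bases with another annotated gene on its strand, so its reads may be split.

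From squalene to sterol the excess was uneven. Lss, lanosterol synthase, had 253 and 267 in KO hypoxia, 872 and 283 in KO normoxia, 242 and 204 in WT hypoxia and 327 and 252 in WT normoxia. Cyp51 had 1350 and 1322 in KO hypoxia, 2953 and 1763 in KO normoxia, 1292 and 1563 in WT hypoxia and 1542 and 1769 in WT normoxia. Sqle had 921 and 1054 in KO hypoxia, 1452 and 1044 in KO normoxia, 878 and 890 in WT hypoxia and 1061 and 1086 in WT normoxia. Sqle therefore stood out less in that library than Lss did. The 2 KO normoxia libraries differed little in Sc5d, the sterol C5 desaturase, with 1011 and 1005, and in Hsd17b7, a 3-ketosteroid reductase of sterol demethylation, with 272 and 256. Log2 differences of the remaining genes ran from 0.50 for Dhcr7, which makes cholesterol from its last precursor, to 1.35 for Fdft1, squalene synthase.

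Regulators were also higher in that library. Srebf2 had 990 and 972 in KO hypoxia, 1571 and 850 in KO normoxia, 924 and 646 in WT hypoxia and 1027 and 787 in WT normoxia. Srebf1 had 521 and 545 in KO hypoxia, 814 and 432 in KO normoxia, 517 and 430 in WT hypoxia and 595 and 479 in WT normoxia. Scap had 903 and 826 in KO hypoxia, 1303 and 779 in KO normoxia, 917 and 629 in WT hypoxia and 889 and 600 in WT normoxia. In WT, Scap followed the replicate number rather than oxygen, and its groups overlapped. Insig1, itself an SREBP target, had 213 and 188 in KO hypoxia, 504 and 179 in KO normoxia, 204 and 233 in WT hypoxia and 246 and 235 in WT normoxia. Insig2, which SREBPs do not induce, went the other way between the KO normoxia libraries, with 280 and 354. In the heat map of all 31 genes the column of KO normoxia replicate 1 is red in nearly every row.

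**Figure D2:**
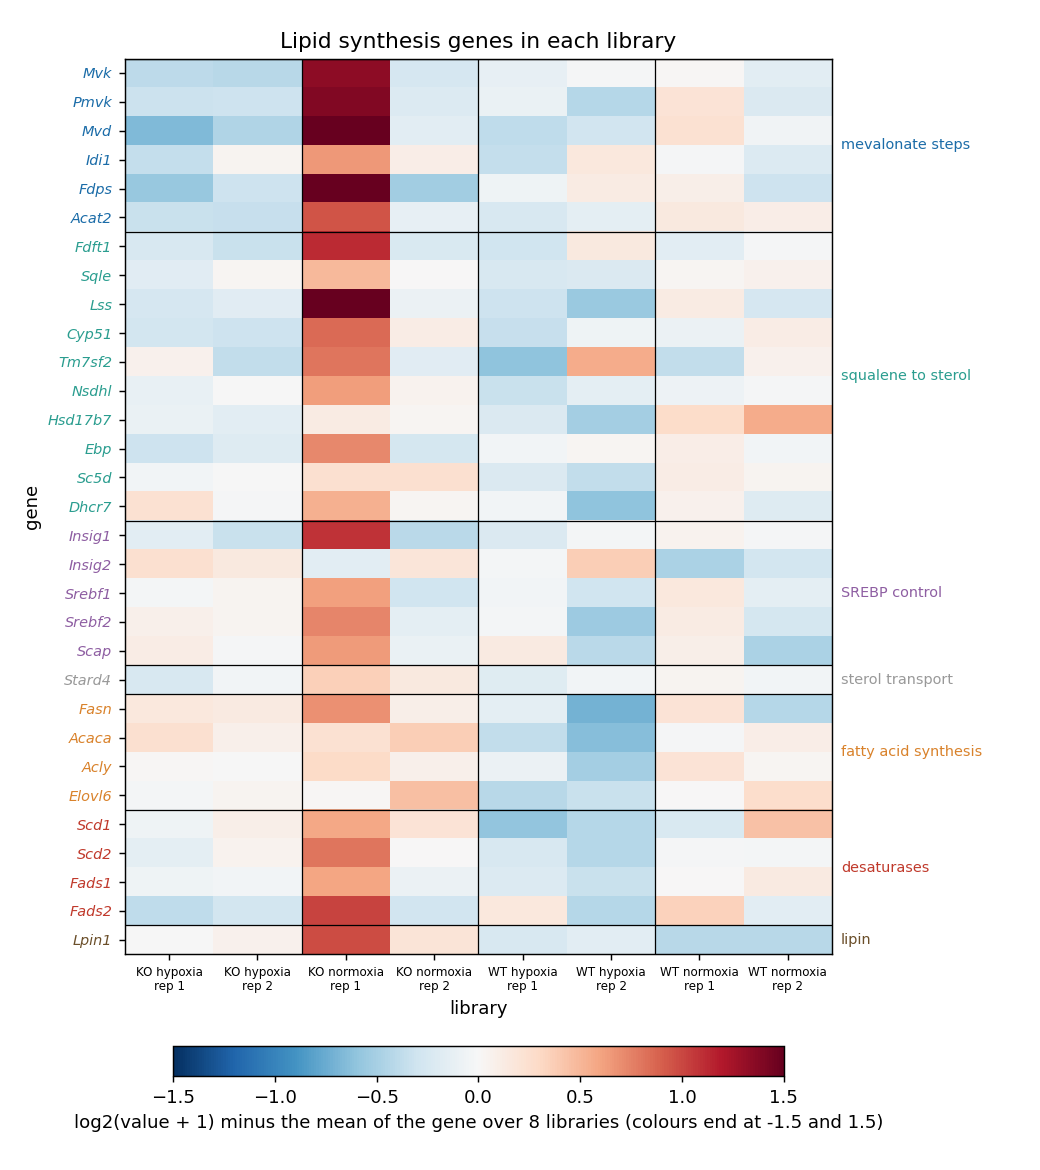
Level of each of the 31 genes (rows, grouped by role) in each of the 8 libraries (columns), as log2(value + 1) minus the mean of the gene over the 8 libraries. KO normoxia replicate 1 is above the mean for most genes, while its Insig2 is below the mean. Among the roles its median is highest for the mevalonate steps (1.36), though Idi1 stands out less.

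Other properties of KO normoxia replicate 1 move beside this. Relative to the mean of each feature over the 8 libraries, values fell by 0.17 on the log2 scale per doubling of transcript length in that library, while they had a slope of 0.16 in KO normoxia replicate 2, and the other 6 libraries lay between -0.15 and 0.13. With the trend of each library with length removed, the median difference of the members between the 2 KO normoxia libraries was 0.90, against 0.74 with it, while the median of the mevalonate steps was lower than with it and that of fatty acid synthesis higher. Its small RNA share was 7.36%, within the 2.70% to 11.5% of all libraries, and its estimated depth was 6.35 M reads. Its HIF targets all lay below the hypoxia libraries, but not all were alike to the other normoxia libraries. Ldha had 6298 in it, against 2807 in KO normoxia replicate 2 and 3942 and 2603 in WT normoxia. Slc16a3 and Ankrd37 were also above the other normoxia libraries. Car9 and Vegfa were below them, and Egln3, Bnip3 and Pdk1 lay between. What else set that library apart was not tested.

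**Figure D3:**
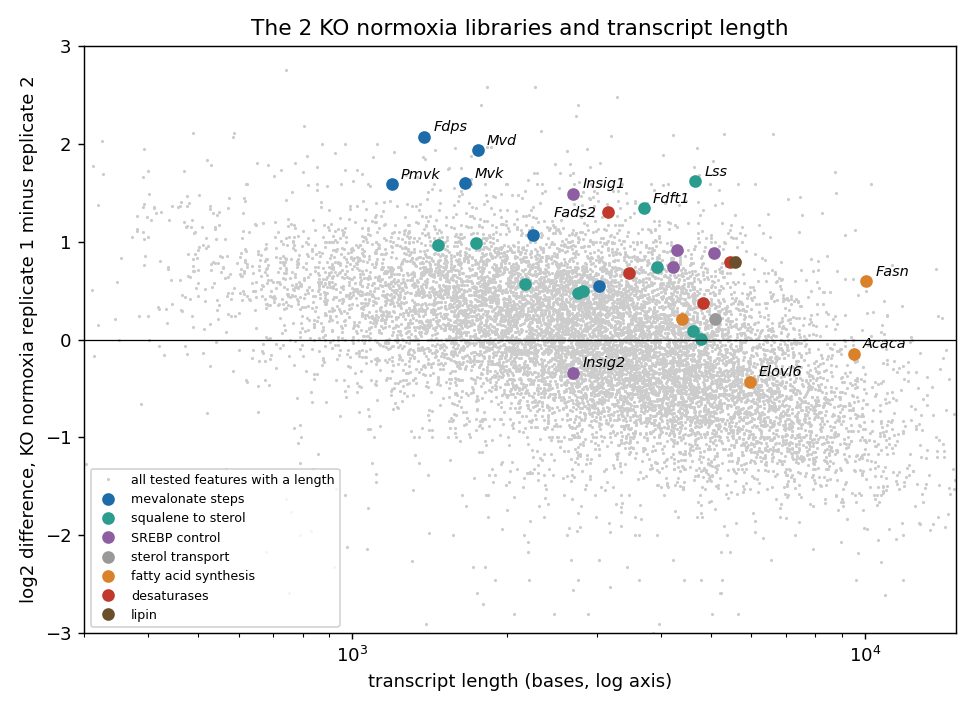
Log2 difference of KO normoxia replicate 1 minus replicate 2 against transcript length (bases, log axis) for 11747 tested features (grey, with 206 more beyond the axes) and the 31 genes (colours by role). Short features lie higher, and most of the coloured points lie above the middle of the grey ones of their length, with Fdps at 2.07 and Elovl6 at -0.43.

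In the cells titled KO, hypoxia was compared with normoxia to ask how these genes respond to low oxygen. The log2 fold change was negative for 30 of 31 members, Insig2 being the exception, while 48.8% of all features were lower and 51.1% higher. The median of the members was -0.40 where all features had 0.01. Of the 31, 0 passed the test of limma at adjusted p under 0.05 (0.0578% of features did) and 4 had an unadjusted p under 0.05, all lower in hypoxia. Of all features, 0.917% were lower and 2.28% higher at that p. The 4 were Mvd at -1.36 ± 0.50 (SE, adjusted p = 0.916), Cyp51 at -0.77 ± 0.27 (adjusted p = 0.916), Acat2 at -0.74 ± 0.31 (adjusted p = 0.916) and Mvk at -0.94 ± 0.41 (adjusted p = 0.916). Both hypoxia libraries were below both normoxia libraries for 15 members (48.4%, against 16.3% of features) and above them for 0 (against 15.9%). The median, the count of negative fold changes and their size rest on KO normoxia replicate 1. Without that library the median was -0.08, with 20 members lower and 11 higher, Mvd was at -0.39 and Mvk at -0.14, and both hypoxia libraries lay below the lone normoxia library for 17 members (54.8%, against 36.9%) and above it for 6 (19.4%, against 33.7%). In that fit the 5 genes of SREBP control were all higher in hypoxia (0.014 to 0.30, median 0.16). Without KO normoxia replicate 2 instead, the median over the members was -0.68.

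In WT cells most members were also lower in hypoxia, Hsd17b7, Scd1 and Acaca by the clearest margins, and Insig2 was higher. The median over the 31 members was -0.22, against -0.02 for all features, with 23 lower and 8 higher (52.2% and 47.8% of all features). By limma 0 passed the test (0.107% of features did). An unadjusted p under 0.05 was found for 3 lower members and 1 higher (1.96% and 4.37% of features). Hsd17b7 had 215 and 175 in WT hypoxia and 303 and 370 in WT normoxia, a log2 fold change of -0.78 ± 0.23 (SE, adjusted p = 0.705). Scd1, the other stearoyl-CoA desaturase of these cells, had 323 and 362 in WT hypoxia and 417 and 664 in WT normoxia (-0.62 ± 0.27, adjusted p = 0.784). Acaca, acetyl-CoA carboxylase, had 243 and 201 in WT hypoxia and 309 and 336 in WT normoxia (-0.54 ± 0.22, adjusted p = 0.784). The groups did not overlap for these 3 genes. Insig2 was the fourth, higher in hypoxia, with 307 and 403 in WT hypoxia and 224 and 257 in WT normoxia (0.55 ± 0.24, adjusted p = 0.784). Both hypoxia libraries lay below both normoxia libraries for 14 members (45.2%, against 19.9% of features) and above them for 2, Insig2 and Lpin1 (6.45%, against 18.9%).

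Among the genes of fatty acid synthesis all 4 had negative fold changes in WT, with a median of -0.46. These are long transcripts, and with the length trend removed the median was -0.26, with Fasn at 0.02 and Acaca at -0.22. Elovl6, an elongase, had 277 and 292 in WT hypoxia and 369 and 443 in WT normoxia (-0.51 ± 0.23, limma adjusted p = 0.787). Acly had 2275 and 1705 in WT hypoxia and 2799 and 2483 in WT normoxia. Fasn, fatty acid synthase, had 2619 and 1763 in WT hypoxia and 3319 and 2146 in WT normoxia, so its groups overlapped while Elovl6 and Acly did not. In KO the 4 genes had a median of -0.20 (-0.27 with the length trend removed), with 361 and 379 for Elovl6 in KO hypoxia and 375 and 506 in KO normoxia. WT hypoxia replicate 2 was the lowest of the 8 libraries for 13 members (41.9%, against 18.4% of features), among them Fasn, Acaca and Acly. Without it the WT median was -0.22, and the lone hypoxia library lay below both normoxia libraries for 19 members (61.3%, against 32.6%).

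Enzymes that use molecular oxygen were followed as a list, since oxygen is their substrate. All 7 in the table had negative fold changes in both genotypes, with a median of -0.39 in KO and -0.31 in WT, and the other 24 members had -0.43 in KO and -0.19 in WT. Without KO normoxia replicate 1 the KO median was -0.08, with 6 of 7 negative. Sc5d had 828 and 849 in KO hypoxia, 1011 and 1005 in KO normoxia, 733 and 659 in WT hypoxia and 925 and 879 in WT normoxia. It was lower in hypoxia in both genotypes without overlap, and its values did not depend on the library that stood apart. Scd2 had 2314 and 2648 in KO hypoxia, 4440 and 2555 in KO normoxia, 2167 and 1894 in WT hypoxia and 2525 and 2498 in WT normoxia. Fads1, the delta-5 desaturase, had 691 and 702 in KO hypoxia, 1092 and 681 in KO normoxia, 625 and 571 in WT hypoxia and 727 and 791 in WT normoxia. Fads2, the delta-6 desaturase, had 274 and 295 in KO hypoxia, 720 and 291 in KO normoxia, 398 and 265 in WT hypoxia and 452 and 318 in WT normoxia. For Scd2 and Fads1 the WT groups did not overlap and the KO groups did, and for Fads2 the WT groups overlapped, as did the KO groups.

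**Figure D4:**
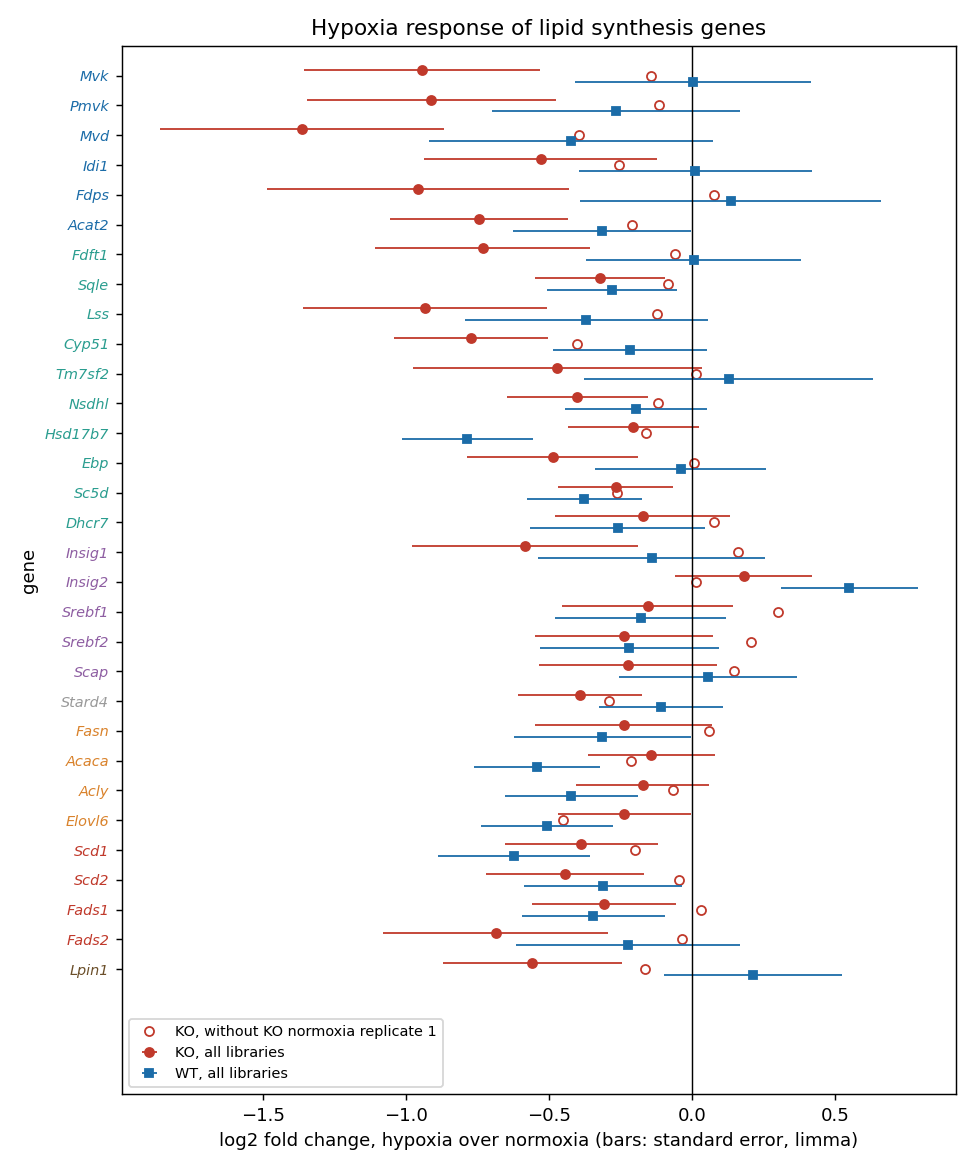
Log2 fold change of hypoxia over normoxia for each of the 31 genes in KO (red, filled), in KO without KO normoxia replicate 1 (red, open) and in WT (blue squares), with the standard error from limma as bars on the fits to all libraries. Open circles lie nearer to 0 than the filled ones for most genes, as for Mvk at -0.14 (open) and -0.94 (filled).

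Over both genotypes, 4 hypoxia libraries were set against 4 normoxia libraries. The median was -0.33 (all features 0.00), with 30 of 31 members lower and Insig2 higher (49.6% and 50.4% of all features). By limma 0 members passed (0.363% of features did, all of them higher in hypoxia) and 7 had an unadjusted p under 0.05, all lower (1.59% of features, with 3.71% higher). These were Hsd17b7 at -0.49 ± 0.16 (SE, adjusted p = 0.777), Scd1 at -0.50 ± 0.19 (adjusted p = 0.861), Cyp51 at -0.49 ± 0.19 (adjusted p = 0.867), Mvd at -0.89 ± 0.35 (adjusted p = 0.892), Acat2 at -0.53 ± 0.22, Sc5d at -0.32 ± 0.14 and Elovl6 at -0.37 ± 0.16 (each adjusted p = 0.922). All 4 hypoxia libraries lay below all 4 normoxia libraries for 5 members, Mvd, Hsd17b7, Sc5d, Acat2 and Acly (16.1%, against 1.65% of features), and above them for 0 (against 2.06%). The same 5 members met this without KO normoxia replicate 1 (against 4.58% of features). That count and the same count without WT hypoxia replicate 2, which was 7 (22.6%, against 2.83%), were alternatives chosen after seeing the data. Without KO normoxia replicate 1 the median was -0.16, with 24 lower and 7 higher. Insig2 had 368 and 347 in KO hypoxia, 280 and 354 in KO normoxia, 307 and 403 in WT hypoxia and 224 and 257 in WT normoxia, a log2 fold change of 0.37 ± 0.17 (adjusted p = 0.922), with groups that overlapped through KO normoxia replicate 2.

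**Figure D5:**
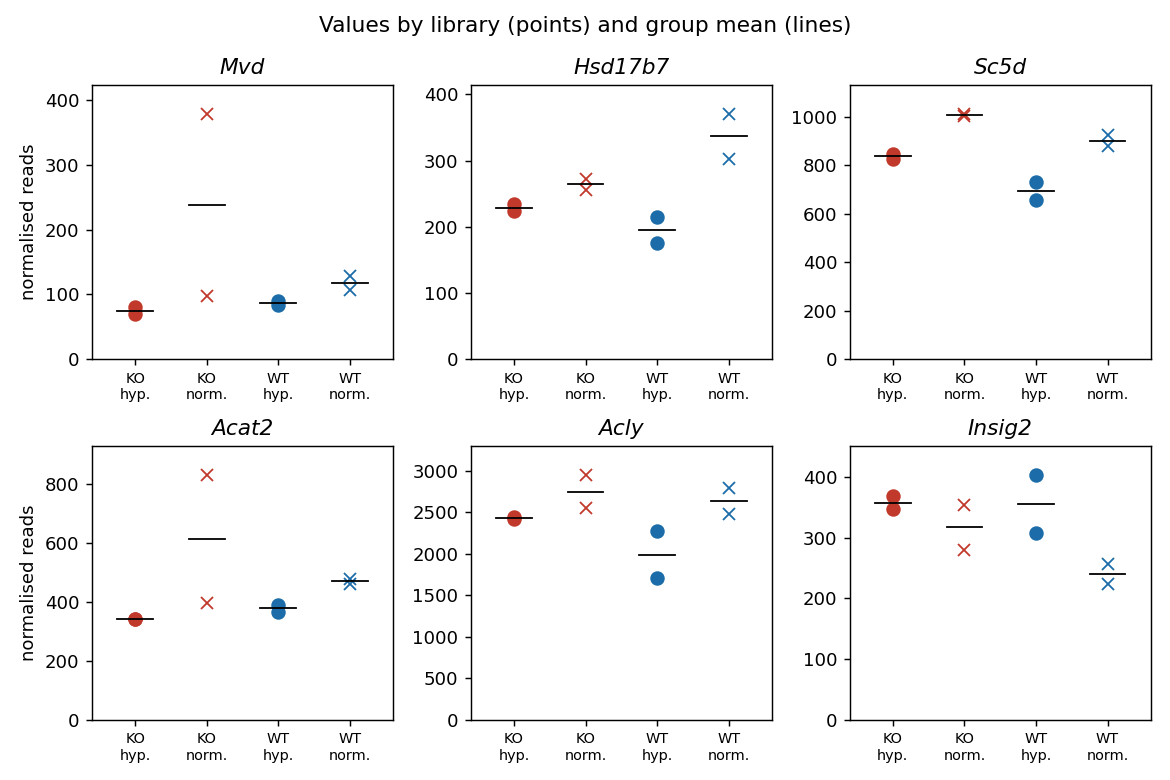
Normalised reads in each library (points) with the mean of each group (lines) for the 5 genes whose hypoxia libraries all lay below the normoxia libraries, and for Insig2. Mvd and Acat2 show the lone high KO normoxia point (378 and 829), while in Sc5d and Hsd17b7 both KO normoxia points lie close together.

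KO was set against WT at each oxygen level to ask what differs with the genotype. In hypoxia the median over members was 0.18 (0.10 without WT hypoxia replicate 2 and 0.08 with the length trend removed), with 18 higher and 13 lower (49% and 51% of all features), and 0 passed the test of limma (0% of features did). The mevalonate genes were all lower in KO hypoxia (6 of 6, median -0.18) and the fatty acid synthesis genes all higher (4 of 4, median 0.48). With the length trend removed, 5 of the 6 mevalonate genes were lower (median -0.10) and the fatty acid median was 0.22. Without WT hypoxia replicate 2, 5 of the 6 were lower (median -0.20) and the fatty acid median was 0.35. Acaca had 372 and 331 in KO hypoxia and 243 and 201 in WT hypoxia (log2 fold change 0.66 ± 0.22 SE, limma adjusted p = 0.641), and it was the only member at an unadjusted p under 0.05, where 4.45% of features were higher and 3.06% lower. Fasn had 3237 and 3182 in KO hypoxia, against 2619 and 1763 in WT hypoxia (0.58 ± 0.31, adjusted p = 0.642). Groups did not overlap for 16 members that were higher in KO (51.6%, against 26.2% of features) and 5 that were lower (16.1%, against 24.5%), namely Mvk, Mvd, Fdps, Ebp and Acat2.

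In normoxia the median of KO over WT was 0.36, with 30 members higher and Hsd17b7 lower (47.6% and 52.3% of all features), and 0 passed the test of limma (0% of features did). Groups did not overlap for 8 members that were higher (25.8%, against 10% of features) and for Hsd17b7, which was lower (3.23%, against 11%), with 272 and 256 in KO normoxia and 303 and 370 in WT normoxia. This median also rests on KO normoxia replicate 1, and without it was -0.02, with 14 higher and 17 lower. Lpin1, which makes diacylglycerol and also acts as a transcriptional coactivator, had 146 and 84 in KO normoxia and 55 and 55 in WT normoxia. Its log2 fold change of 1.00 ± 0.31 (limma adjusted p = 1) had the only unadjusted p under 0.05 among members, where 1.46% of features were higher and 1.54% lower. The fold change was 0.60 without that library. Both comparisons of KO with WT share their libraries with those of hypoxia with normoxia, so the 4 are not independent.

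The difference of the responses, KO minus WT, had a median of -0.28 over the members (all features 0.01), with 10 positive and 21 negative (51.1% and 48.9% of features). By limma 0 members passed (0% of features did) and 0 had an unadjusted p under 0.05, where 1.19% of features were positive and 1.95% negative. For the mevalonate genes the median difference was -0.79, with Mvk at -0.95 (95% confidence interval -2.24 to 0.35, adjusted p = 0.857), and for fatty acid synthesis it was 0.26, with Acaca at 0.40 (-0.29 to 1.09, adjusted p = 0.857). Without KO normoxia replicate 1 the median over members was 0.11, that of the mevalonate genes -0.01 (3 positive, 3 negative) and Mvk was at -0.15. With the length trend removed the fatty acid median was -0.01 (2 positive, 2 negative) and Acaca was at -0.02. Intervals of this width leave room for sizeable differences in either direction, and a p that misses the threshold does not show that the genotypes respond alike.

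The neighbouring lists of lipid metabolism held no gene past the test. The lists were 9 other genes of SREBP processing and turnover, 6 of the LXR receptor pathway and sterol export, and 12 of sterol storage, transport and uptake. The others were 8 of the isoprenoid branches, 16 further fatty acid enzymes and 14 of glycerolipid synthesis. None of these genes passed the test in any of the 6 comparisons (limma). Of these 65 genes, an unadjusted p under 0.05 was found for 2 for hypoxia in KO (3.08%, against 3.2% of all features), 1 in WT (1.54%, against 6.33%) and 1 over both genotypes (1.54%, against 5.29%). It was found for 0 for KO over WT in hypoxia (against 7.52%), 2 in normoxia (3.08%, against 3%) and 1 for the difference of responses (1.54%, against 3.14%). With both genotypes together their median log2 fold changes for hypoxia were -0.04, -0.11, -0.12, -0.04, -0.13 and -0.10 in that order. Vldlr, a lipoprotein receptor, had the largest statistic for hypoxia in the storage, transport and uptake list. It had 1166 and 1240 in KO hypoxia, 220 and 607 in KO normoxia, 765 and 719 in WT hypoxia and 354 and 441 in WT normoxia. Its 4 hypoxia libraries were all above its 4 normoxia libraries, with a log2 fold change of 1.31 ± 0.27 (SE, adjusted p = 0.136, unadjusted p = 6.8e-04). Slc25a1, the mitochondrial citrate carrier that supplies Acly, had 289 and 268 in KO hypoxia, 708 and 289 in KO normoxia, 336 and 412 in WT hypoxia and 342 and 417 in WT normoxia, so it too was high in KO normoxia replicate 1. The excess of that library was not seen across these lists as wholes. Their median deviations there were -0.01 for SREBP processing, 0.20 for the LXR pathway and export, 0.00 for storage, transport and uptake and -0.05 for isoprenoid branches. They were 0.13 for further fatty acid enzymes and -0.04 for glycerolipid synthesis, against 0.69 for the 31 members.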

How the data were processed

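Per the labels' protocols, total RNA was extracted with a miRNeasy kit and libraries were made with an NEB small RNA kit of the SOLiD platform. The table that was deposited holds 1 score per feature and library, which its name calls the authors' normalised read counts. All are whole numbers, and 1 is the lowest. For the aligner, counting, strand use, build and normalization, the method is not given in the sources used here. The 9 members whose exons share bases with another gene (Cyp51, Fdft1, Fdps, Idi1, Lss, Scap, Scd2, Srebf1 and Tm7sf2) are therefore uncertain. Depth was estimated from the spacing of low values (1 read was worth 0.674 to 1.385). Rounding hides the reads, so no count model was run.

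Values were taken as log2(value + 1), which understates changes of low genes. Features with at least 10 in at least 2 libraries were tested. A model of the 4 groups was fitted to the 8 libraries with limma 3.58.1 in R 4.3.3 (trend, no replicate term, 10.2 degrees of freedom). P-values were two-sided and adjusted by Benjamini and Hochberg over all 12107 features, with a threshold of 0.05. The code was tested on simulated data. Lengths are those of GENCODE vM21 transcripts, and 98.7% of tested features had one. Members and lists were chosen with earlier results of these data known. Values are given for the 5 members with the largest statistic in each hypoxia comparison, the regulators, Lpin1 and the oxygen-using enzymes, and for 1 gene at most per further list. Genes such as Fdps, Acly, Fasn, Pmvk, Idi1, Fdft1, Dhcr7 and Slc25a1 were added for their role after their values were seen. Alternatives were other pseudocounts, filters, scalings, length trend removal, a replicate block and left-out libraries.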

Additional observations from a re-analysis of the deposited data

Results flagged for a closer look

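Lpin1 had opposite directions in the genotypes. Both KO hypoxia libraries (73 and 77 normalised reads) were below both KO normoxia libraries (146 and 84), while both WT hypoxia libraries (62 and 66) were above both WT normoxia libraries (55 and 55). The difference of the responses, KO minus WT, was -0.77 on the log2 scale (95% confidence interval -1.75 to 0.21) and did not pass the test of limma (adjusted p = 0.857). Of all features, 16.3% had both hypoxia libraries below both normoxia libraries in KO, and 18.9% had both above in WT. The share of features with both patterns was not counted, so how unusual Lpin1 is was not tested. KO normoxia replicate 1 had the highest Lpin1 value of the 8 libraries. Without it the difference was -0.38 and the fold change in KO was -0.16, against -0.56 with it.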

How the results depend on the processing

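With other pseudocounts, filters and scalings, 0 of the 31 genes passed in any comparison and each median kept its direction. Leaving out each library in turn gave 0 to 12 genes called in KO and 0 to 3 over both genotypes, the highest without KO normoxia replicate 2. That fit leaves KO normoxia replicate 1 alone in its group, so its calls in KO rest on the library that stood apart. Far more of all tested features were also called in KO in that fit than with all 8 libraries. The median ranged from -0.68 to -0.08 for hypoxia in KO and from -0.31 to -0.11 in WT. It ranged from -0.021 to 0.80 for KO over WT in normoxia and from -0.53 to 0.11 for the difference of responses. For KO over WT in hypoxia it ranged from 0.097 to 0.21. Among the 20 genes chosen for full statistics, the fold changes that changed sign ranged as follows. In KO, Srebf1 ran from -0.61 to 0.30, Srebf2 from -0.68 to 0.21, Scap from -0.59 to 0.15, Insig1 from -1.33 to 0.16 and Fads1 from -0.65 to 0.03. In WT, Mvk ran from -0.083 to 0.093, Srebf2 from -0.48 to 0.040, Scap from -0.23 to 0.34 and Fads2 from -0.52 to 0.070. Over both genotypes, Srebf1 ran from -0.39 to 0.062, Scap from -0.27 to 0.10, Insig1 from -0.73 to 0.0097 and Lpin1 from -0.37 to 0.026. Of the other 11 members, Fasn (0.061), Fdps (0.079), Dhcr7 (0.076), Tm7sf2 (0.015) and Ebp (0.0062) also turned positive in KO without KO normoxia replicate 1. Over both genotypes Fdps (0.11) and Tm7sf2 (0.072) did so. Without WT hypoxia replicate 2, Idi1, Fdft1 and Tm7sf2 lay below both WT normoxia libraries. With all libraries their WT fold changes were 0.013, 0.0072 and 0.13. Other WT sign changes of these 11 with a library left out are not listed. With KO normoxia replicate 1 and WT hypoxia replicate 2 both left out, the median was -0.021 for KO over WT in normoxia and 0.093 for the difference. In that fit, among the 20 genes, the KO signs changed for Srebf1 (0.30), Srebf2 (0.21), Scap (0.15), Insig1 (0.16) and Fads1 (0.032), and the WT signs for Mvk (-0.045), Srebf2 (0.040) and Fads2 (0.070). Over both genotypes they changed for Srebf1 (0.13), Srebf2 (0.12), Scap (0.24), Lpin1 (0.0040) and Fads2 (0.018). With the length trend removed, 5 of the 31 signs changed in WT, for Mvk (-0.13), Fasn (0.020), Stard4 (0.048), Fdps (-0.049) and Tm7sf2 (-0.040). The cause was not tested in any of these. The labels do not say what a replicate number marks. Deviations of same-numbered libraries correlated at 0.565 between the WT groups and 0.229 between the KO groups, and from -0.112 to 0.112 across genotypes. Pairing is thus not given by the design, and pairing within WT alone was not tested. With the replicate block, a term shared by both genotypes, 0 members were called. An unadjusted p under 0.05 was then found for 7 in KO (22.6%, against 4.96% of features), 5 in WT (16.1%, against 7.66%) and 9 over both (29%, against 6.71%). Fits of the compared groups alone give no value for the difference or for both genotypes. Counts without KO normoxia replicate 1 or WT hypoxia replicate 2 of genes lower in every hypoxia library were added after seeing the data. A group of 2 limits every result, and a lone library left in a group is assumed to vary like the others.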
